A study of Mus musculus with 6 samples.

Results

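A group of 9 transcription factor genes that mark the layers of the cerebral cortex were followed in brain RNA of aged wild-type (WT) and Sgo1-/+ mice. They are Cux1, Cux2, Rorb, Fezf2, Bcl11b, Tbr1, Foxp2, Tle4 and Neurod6, and were found by gene symbol among the 38087 genes of the deposited table. A total of 10 entries carried one of these symbols, because Cux2 is listed under 2 gene identifiers. The main Cux2 entry (ENSMUSG00000042589) was used, and the second (ENSMUSG00000072641), which lies inside it, held between 4 and 14 estimated reads per library and was removed by the filter on low counts. All 9 genes passed that filter.

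The series compared 3 WT mice with 3 mice that carry 1 disrupted copy of Shugoshin-1 (Sgo1), a protector of the cohesin that holds sister chromatids together. All 6 mice were of the C57BL6 strain, untreated and 24 months old, and each gave 1 RNA-seq library from the cerebrum, with cortex and hippocampus kept and, by the study's methods, the olfactory bulb, cerebellum and medulla removed. The males were replicate 1 of WT and replicate 2 of Sgo1-/+, the other 4 mice were females, and the sex genes fitted the labelled sex in 6 of 6 libraries. The WT libraries were run 258 and the Sgo1-/+ libraries run 259, so genotype and run cannot be told apart. The targeted gene Sgo1 had between 0 and 7 estimated reads in any library, too few to check the genotype.

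The neurons of the cortex are stacked in layers, and the excitatory projection neurons of each layer are specified during development by transcription factors that stay expressed in the adult. Cux1, Cux2 and Rorb mark upper layers, Fezf2 and Bcl11b mark the layer 5 neurons that project below the cortex, and Tbr1, Foxp2 and Tle4 mark layer 6. Several of these genes repress one another, as Tbr1 and Fezf2 do in the choice between layers 5 and 6. Most of them are also used elsewhere in the brain. Bcl11b and Foxp2 are made by striatal projection neurons, Foxp2 by Purkinje cells, Rorb and Foxp2 in the thalamus, and Neurod6 by pyramidal neurons of the hippocampus.

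The promoters of Fezf2, which had the lowest level per length of the 9 genes in WT replicate 1, and of Neurod6, which varied most among the other 5 libraries (coefficient of variation 45.9%), are shown as the 250 bases before the RefSeq start (GRCm38.p6, the assembly also called mm10). The Fezf2 window is chr14:12345866-12346115 and the Neurod6 window chr6:55681264-55681513, both on the minus strand. Capitals mark matches on either strand to GGGCGG (the GC box) or CANNTG (the E-box, the kind of motif bound by bHLH factors such as Neurod6 itself).
Fezf2: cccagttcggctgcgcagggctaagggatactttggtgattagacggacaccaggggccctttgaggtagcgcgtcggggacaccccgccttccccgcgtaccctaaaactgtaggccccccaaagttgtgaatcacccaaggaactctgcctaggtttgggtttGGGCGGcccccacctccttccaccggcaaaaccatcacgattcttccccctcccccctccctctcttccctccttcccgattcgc
Neurod6: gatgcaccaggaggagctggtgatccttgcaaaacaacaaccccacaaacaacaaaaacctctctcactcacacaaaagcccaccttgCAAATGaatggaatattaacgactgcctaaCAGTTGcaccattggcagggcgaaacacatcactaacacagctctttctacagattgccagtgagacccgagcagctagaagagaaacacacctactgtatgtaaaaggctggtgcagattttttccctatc
Fezf2 held 1 match to the GC box and 0 to the E-box, with a GC content of 61.2%, and Neurod6 held 0 and 2, with a GC content of 46.0%. Of 27025 promoter windows of this length, 32.9% held GGGCGG and 66.0% held CANNTG, and the median GC content was 52.0%. These matches are descriptions of the letters in the windows, and no binding was measured.

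WT replicate 1 stood apart from the other 5 libraries in these genes. Its level was the lowest of the 6 libraries for 9 of the 9 layer factors, against 30.4% of all 16337 genes tested. It was under 50% of the median of the other 5 libraries for 5 layer factors (8.53% of all genes tested) and under 10% for 3 of them (0.808% of all genes tested). In the same library the summed CPM (counts scaled to library size) of 5 Purkinje cell genes were 839, of 7 cerebellar granule cell genes 1346, and of 7 genes of the medulla and brain stem 345. The other 5 libraries held 20 to 50.4, 37.4 to 113 and 2.27 to 5.29 CPM of these lists, and in them 4 or 5 of the 7 medulla genes were at or under 3 reads. Every gene of the 3 lists was highest in WT replicate 1, which goes against the stated dissection. The 8 genes of projection neurons in general (among them Slc17a7, Camk2a, Neurod2 and Bhlhe22) summed to 731 CPM there and to between 4580.4 and 5818 in the other libraries, and 9 striatal genes to 369 against 1252 to 2972. The sum of the projection neuron genes is carried by the abundant ones, and 6 of the 8 were lowest in WT replicate 1, whereas Neurod2 was at 111% and Bhlhe22 at 145% of the median of the other libraries. The genotype comparisons are therefore given with and without WT replicate 1. Genes of the olfactory bulb, also stated as removed, were unequal among the libraries as well. The 5 genes of this list summed to 181 and 136 CPM in WT replicates 2 and 3, to 96 CPM in Sgo1-/+ replicate 1, and to between 13.7 and 34.6 in the other 3 libraries. Once WT replicate 1 is left out, this sum is higher in both WT libraries than in any Sgo1-/+ library, although Trh, by itself, overlaps between the groups. Whether olfactory bulb tissue gave these differences was not tested. In tissue RNA, fewer cells of a type and less RNA per cell cannot be told apart.

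Cux1 (ENSMUSG00000029705, chromosome 5 of mm10 from 136248135 to 136567490) is a homeodomain factor of upper-layer neurons that many other cells express as well. It was the steadiest of the 9 genes. WT replicates 1, 2 and 3 had 875, 1133 and 1063 normalized counts, that is, counts scaled to a common library size, and Sgo1-/+ replicates 1, 2 and 3 had 1069.9, 1058 and 990.4. The groups overlapped, and WT replicate 1 kept 82.3% of the median of the other 5 libraries. The mean normalized count of WT was 1024 ± 133 and that of Sgo1-/+ 1039 ± 42.8 (SD, n = 3; p = 0.9 in a two-sided exact permutation test). With 3 against 3 libraries this test cannot give a p below 0.1. An antisense gene, Gm16599, shares 394 exonic bases with Cux1, and the kit does not mark the strand, so reads there cannot be assigned to either gene.

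Cux2 (chromosome 5, 121857963 to 122050102), the paralog that is more restricted to layers 2 to 4, had 587, 872 and 898 normalized counts in WT replicates 1 to 3. In Sgo1-/+ replicates 1 to 3 it had 691, 739 and 924. WT replicates 2 and 3 and Sgo1-/+ replicate 3 were the high libraries, and the groups overlapped. Its means were nearly equal, 786 ± 172 in WT and 785 ± 123 in Sgo1-/+ (SD, n = 3; exact permutation p = 1).

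Rorb (ENSMUSG00000036192, chromosome 19, 18930605 to 19111196) encodes an orphan nuclear receptor of layer 4. Its normalized counts were 267, 286 and 546 in the WT replicates and 334, 453 and 635 in the Sgo1-/+ replicates. The lowest values were those of WT replicates 1 and 2, and a 2.22-fold range remained among the 5 libraries without WT replicate 1. Mean counts were 366 ± 156 (WT) and 474 ± 152 (Sgo1-/+) (SD, n = 3; exact permutation p = 0.5).

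The layer 5 factors were both under 10% of their usual level in WT replicate 1, as was Tbr1 of layer 6. Fezf2 (ENSMUSG00000021743, chromosome 14, 12341892 to 12345865), a zinc finger factor that specifies corticospinal neurons, had 9.06, 198 and 128 normalized counts in the WT replicates. It had 159, 168 and 211 in the Sgo1-/+ replicates. WT replicate 1 held 5.39% of the median of the other libraries, and the lowest of those, WT replicate 3, was still 14.1-fold above it. Bcl11b (ENSMUSG00000048251, chromosome 12, 107910403 to 108003602), also known as Ctip2, acts downstream of Fezf2. It had 144, 1389 and 1596 normalized counts in WT and 1644, 1851 and 1150 in Sgo1-/+, so that WT replicate 1 was at 9.02% and Sgo1-/+ replicate 3 was the lowest of the rest. The means were 112 ± 95.5 and 179 ± 27.6 for Fezf2 and 1043 ± 785 and 1548 ± 360.2 for Bcl11b, in WT and Sgo1-/+ (SD, n = 3; exact permutation p = 0.3 and 0.4).

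Tbr1 (ENSMUSG00000035033, chromosome 2, 61802930 to 61814114), a T-box factor of early-born layer 6 neurons, showed the widest range. Its normalized counts were 48.3, 913 and 1359 in the WT replicates and 1046, 1078 and 1170.5 in the Sgo1-/+ replicates. WT replicate 1 held 4.48% of the median of the others, while the 3 Sgo1-/+ libraries lay between WT replicates 2 and 3. Mean counts were 774 ± 667 (WT) and 1098 ± 64.6 (Sgo1-/+) (SD, n = 3; exact permutation p = 0.7).

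The other layer 6 genes kept more of their level in WT replicate 1. Foxp2 (ENSMUSG00000029563, chromosome 6, 14901349 to 15441977), a forkhead factor known for its part in vocal learning, had 188, 351 and 398 normalized counts in WT and 411, 550.2 and 360.1 in Sgo1-/+. Tle4 (ENSMUSG00000024642, chromosome 19, 14448072 to 14598051), a Groucho-type corepressor, had 482, 757 and 799 in WT and 832, 973 and 760.2 in Sgo1-/+. WT replicate 1 kept 47.4% of the median of the other libraries for Foxp2 and 60.3% for Tle4, and Sgo1-/+ replicate 2 was the highest library for both. The groups overlapped for Foxp2 (312 ± 110 in WT, 441 ± 98.3 in Sgo1-/+) and for Tle4 (679.6 ± 172 and 855 ± 108; SD, n = 3), with an exact permutation p of 0.2 for each.

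Neurod6 (ENSMUSG00000037984, chromosome 6, 55677818 to 55681263) is a bHLH factor of projection neurons in all layers and of hippocampal pyramidal cells. It had 115, 406 and 593 normalized counts in the WT replicates and 458, 574 and 1134 in the Sgo1-/+ replicates. WT replicate 1 was at 20% of the median of the others, and Sgo1-/+ replicate 3 was the single high library. The mean of 722 ± 361 in Sgo1-/+ was above the 371 ± 241 of WT, but the groups overlapped (SD, n = 3; exact permutation p = 0.3).

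**Figure D1:**
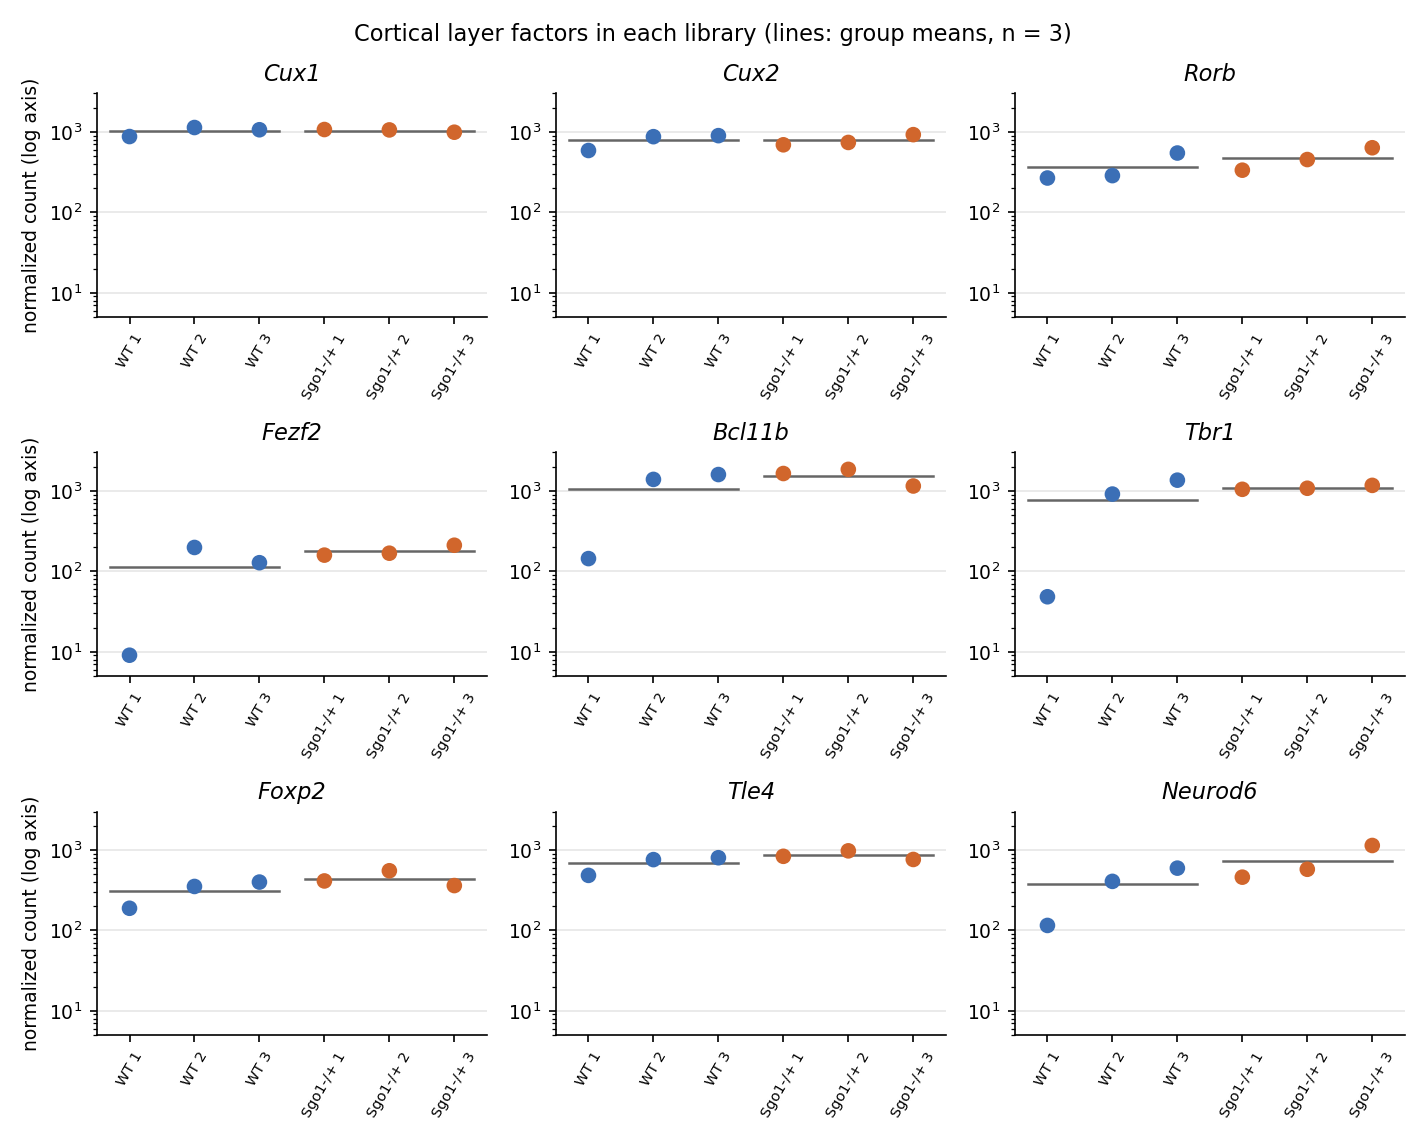
Normalized counts (vertical log axis, the same range in every panel) of the 9 layer factors in the 3 WT libraries (blue) and the 3 Sgo1-/+ libraries (orange), with 1 point per library and lines at the group means. WT replicate 1 is the lowest point in all 9 panels, from 82.3% of the median of the other libraries for Cux1 to 4.48% for Tbr1, and Sgo1-/+ replicate 3 is the highest for Neurod6 at 1134.

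Per length of all annotated exons, the factors differed in level by about 10-fold. Dividing CPM by the kilobases of annotated exon, and leaving out WT replicate 1, Neurod6 was highest at 24.4 ± 11.2 CPM per kb, followed by Tbr1 (16.8 ± 2.50), Bcl11b (15.6 ± 2.72) and Tle4 (12 ± 1.29; SD, 5 libraries). The ranges of these neighbours in the order overlapped. Cux2 followed at 6.78 ± 0.848, above the ranges of Cux1 and Rorb, and then came Fezf2 (4.70 ± 0.893), Cux1 (4.40 ± 0.210), Rorb (3.37 ± 1.08) and Foxp2 (2.1 ± 0.406), where again each range overlapped the next. Cux1 and Foxp2 have long annotated exons (20024 and 16346 bases), so their levels per length depend most on the transcript chosen. With the longest transcript in place of all exons, 5 of the 9 genes kept their rank over the 6 libraries. The spread was then smaller without WT replicate 1, from 24.4 CPM per kb for Neurod6 to 4.02 for Rorb, with Foxp2 at 5.07.

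In WT replicate 1 the order itself was different. Tle4 was highest there at 7.01 CPM per kb, Cux2 was second at 4.82, and Neurod6 followed at 4.42. Tbr1, otherwise second of the 9, was eighth at 0.730, and Fezf2 was last at 0.246.

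**Figure D2:**
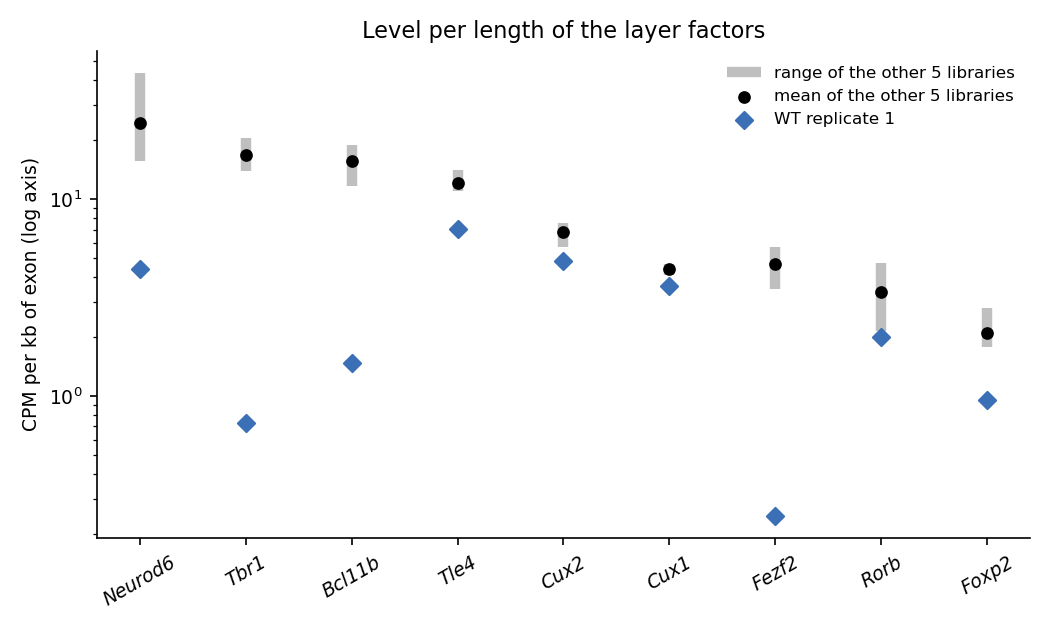
Level per length (CPM per kb of annotated exon, vertical log axis) of the 9 layer factors, with grey bars for the range and black points for the mean of the other 5 libraries and blue diamonds for WT replicate 1. Rorb, Cux1 and Cux2 of WT replicate 1 lie closest to their bars, while Tbr1 at 0.730 and Fezf2 at 0.246 lie furthest below them.

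To ask whether the layer factors differ between the genotypes, all 16337 genes were fitted together in edgeR by quasi-likelihood. With p-values adjusted by Benjamini and Hochberg's method, 0 of the 9 layer factors came under 0.05, against 0.0% of all genes, and the adjusted p was 0.9999 for each. At an unadjusted p under 0.05 the count was again 0 of 9, where 2.04% of all genes (333) were called. DESeq2's Wald test, edgeR's likelihood ratio test and limma also called 0 of the 9. The expression of the groups overlapped for 9 of the 9 factors, while 6.81% of all genes did not overlap (3.24% higher and 3.57% lower in Sgo1-/+).

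The log2 fold changes of Sgo1-/+ against WT leaned upward, with 8 of 9 above 0 (49.8% of all genes) and a median of 0.50 (-0.00 over all genes). When the libraries were scaled to the projection neuron genes instead, the median of the factors was -0.27 and that of all genes -1.13. Before this rescaling, the changes were largest for Neurod6 (0.96, SE 0.590), Fezf2 (0.68, SE 0.796) and Bcl11b (0.57, SE 0.728). Tbr1 (0.51, SE 0.882) and Foxp2 (0.50, SE 0.297) came next. The changes were 0.37 (SE 0.343) for Rorb and 0.33 (SE 0.208) for Tle4, and nearest 0 for Cux1 (0.02, SE 0.124) and Cux2 (-0.00, SE 0.197).

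Without WT replicate 1, the median of the 9 changes was 0.14, and 6 of 9 were above 0 (51.3% of all genes). The log2 fold change of Fezf2 became 0.14 (SE 0.233), that of Bcl11b 0.05 (SE 0.193) and that of Tbr1 -0.05 (SE 0.166). For Cux1 and Cux2 it was -0.08 (SE 0.0938) and -0.17 (SE 0.139). Rorb (0.19, SE 0.329), Foxp2 (0.23, SE 0.189), Tle4 (0.14, SE 0.127) and Neurod6 (0.53, SE 0.376) stayed above 0. None of these 9 had an unadjusted p under 0.05 in edgeR's quasi-likelihood test, where 3.77% of all genes did, the adjusted p was 0.9995 for each, and the groups still overlapped for each (17.9% of all genes did not overlap). The standard errors of Fezf2, Bcl11b and Tbr1 were smaller in this fit, which rests on 2 WT mice.

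**Figure D3:**
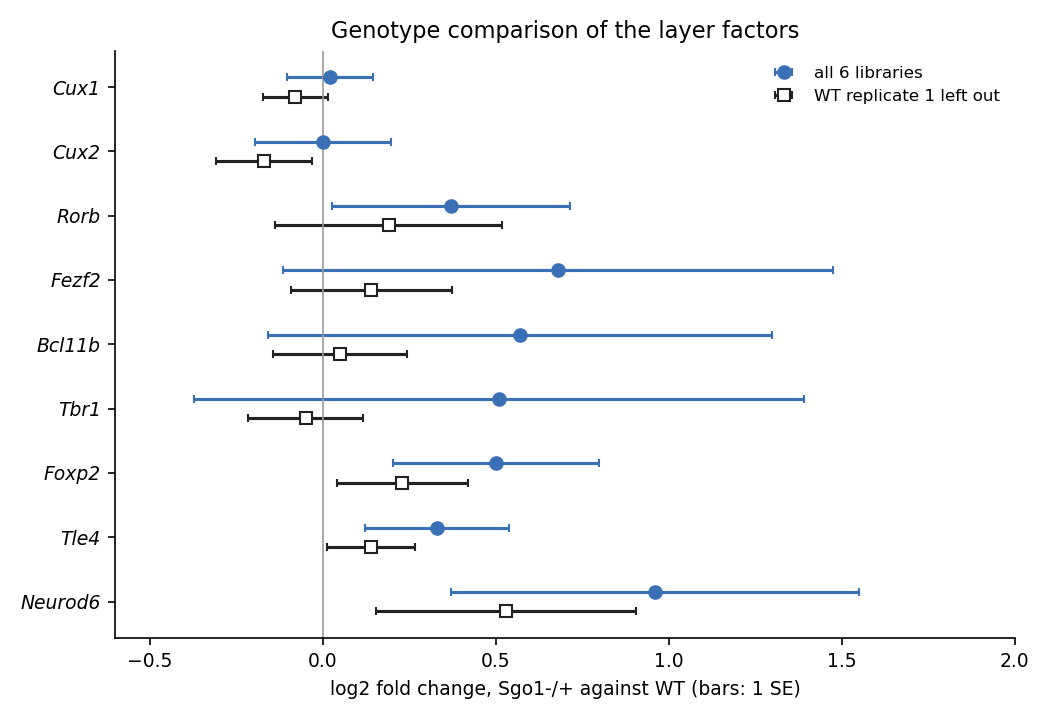
Log2 fold change of Sgo1-/+ against WT (horizontal axis, bars of 1 SE) for each layer factor, from edgeR's fit to all 6 libraries (blue circles) and to the 5 libraries without WT replicate 1 (open squares). Fezf2, Bcl11b and Tbr1 move from 0.68, 0.57 and 0.51 to 0.14, 0.05 and -0.05, and their bars shorten.

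Sex was checked because WT replicate 1 is the only WT male. Among the 4 females, an alternative chosen after the data were seen, the log2 fold changes lay between -0.13 for Cux2 and 0.23 for Rorb for 8 of the factors. Neurod6 was the exception at 0.68 (SE 0.413), and the adjusted p from edgeR was 1 for each of the 9. This fit also drops WT replicate 1, so it cannot tell sex from what else sets that library apart. With a sex term and all 6 libraries, Fezf2, Bcl11b, Tbr1 and Neurod6 were at 1.14, 0.98, 1.13 and 1.18, and the other factors at 0.02 to 0.53. Of the 9 factors, Neurod6 alone then had an unadjusted p under 0.05 in edgeR's quasi-likelihood test, where 332 of all 16337 genes did.

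The variation among the libraries other than WT replicate 1 was not shared by the 9 genes. Ranked by their normalized counts, Bcl11b placed the libraries as Sgo1-/+ replicate 3, WT replicate 2, WT replicate 3, Sgo1-/+ replicate 1 and Sgo1-/+ replicate 2, from low to high. A list of 9 striatal genes (among them the dopamine receptors Drd1 and Drd2, Adora2a and Penk) gave the same order of these libraries, with summed CPM of 1252, 1564, 2007, 2493 and 2972. All 9 striatal genes were highest in Sgo1-/+ replicate 2, where Bcl11b, Foxp2 and Tle4 were also highest. On the log2 scale, the profiles of Foxp2 and Tle4 over these 5 libraries differed by a root mean square of 0.10, and those of Bcl11b and Foxp2 by 0.14. Other pairs were also close, as Cux1 and Tle4 (0.15) and Cux1 and Cux2 (0.19), so a small difference is not particular to these genes. The summed level of the striatal list was 369 to 2007 CPM in WT and 1252 to 2972 in Sgo1-/+, and its part in the levels of Bcl11b, Foxp2 and Tle4 was not tested.

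Sgo1-/+ replicate 3 was the highest library for 4 of the 9 factors (Cux2, Rorb, Fezf2 and Neurod6), against 12.9% of all genes. In this library 5 of 6 hippocampal genes (from Prox1, Wfs1, Fibcd1, Dsp, C1ql2 and Spink8) and 5 of 7 thalamic genes were at their highest, with a median log2 ratio to the 6 libraries of 1.44 and 1.56. The summed CPM of the thalamic list was 384 against 83.4 to 109.7 (289.8 in WT replicate 1). That of the hippocampal list, 219, was within the 195 to 240.3 of the other libraries apart from WT replicate 1. This sum is carried by the abundant Wfs1, the gene not highest there, with 1085 normalized counts against 1899 to 2374 in those libraries. Prox1, Fibcd1 and Dsp had 653, 477 and 198, against 204 to 310, 140.1 to 197 and 8.57 to 14.2. Without Sgo1-/+ replicate 3, the log2 fold change was 0.48 for Neurod6 and 0.10 for Rorb. The part of these tissue differences in the levels of Neurod6 and Rorb was not tested.

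Other genes known to mark the layers were counted beside the factors. Of 15 other upper-layer genes, 8 had a log2 fold change above 0 and 7 below, with a median of 0.06 (-0.04 without WT replicate 1). The 8 other layer 5 genes had a median of 0.10 (0.12), the 11 other layer 6 genes of 0.38 (-0.01) and the 8 general projection neuron genes of 0.40 (-0.03), where the median of all genes was -0.00 (0.01). None of these 42 genes, by edgeR's quasi-likelihood fit, passed an unadjusted p of 0.05 in the fit to 6 libraries. The groups did not overlap for 2 of them, where 6.81% of all genes did not. These were Pcp4, a calmodulin-binding protein of layer 5 and striatum, among other cells, and Ntsr1, the neurotensin receptor of corticothalamic cells. Both were higher in Sgo1-/+, with log2 fold changes of 0.31 (SE 0.166) and 0.46 (SE 0.308). Pcp4 had 3651, 2832 and 4291 normalized counts in WT and 4327, 4629 and 4380 in Sgo1-/+, and Ntsr1 had 40.3, 81.9 and 85.2 against 88.4, 106 and 91.1. WT replicate 1 held 84.4% of the median of the other 5 libraries for Pcp4 and 45.6% for Ntsr1.

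Without WT replicate 1, the groups did not overlap for 9 of the 42 genes (17.9% of all genes), with 4 higher in Sgo1-/+ (8.72% of all genes). An unadjusted p under 0.05 was then reached by 3 of them (3.77% of all genes). These were Bcl6, a transcriptional repressor, with a log2 fold change of 0.38 (SE 0.124), Deptor, an inhibitor of mTOR, with -0.34 (SE 0.103), and Mdga1, a synaptic adhesion protein, with -0.32 (SE 0.106). Their changes with all 6 libraries were 0.05, -0.19 and -0.03, and none passed the adjusted threshold in either fit.

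The lists were unequal in WT replicate 1, and the median of the layer 5 list did not share the low level of Fezf2 and Bcl11b. Of the 8 genes in that list, 4 were lowest and 2 highest in WT replicate 1. The median log2 ratio to the 6 libraries was -2.87 for the general projection neuron genes and -1.19 for the other layer 6 genes, but -0.27 for the other upper-layer genes and -0.22 for the other layer 5 genes. Genes of 1 list also differed, as shown by examples chosen after their values were seen. Crym, a layer 5 and striatal protein that binds thyroid hormone, had 22.2 normalized counts in WT replicate 1 and 619 to 1125 in the other libraries. Calb1, the calcium buffer that also fills Purkinje cells, had 5127 against 1485 to 2145. Neurod2, a close relative of Neurod6 that cerebellar granule cells also make, had 704, between the 606 and 850.2 of the others.

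**Figure D4:**
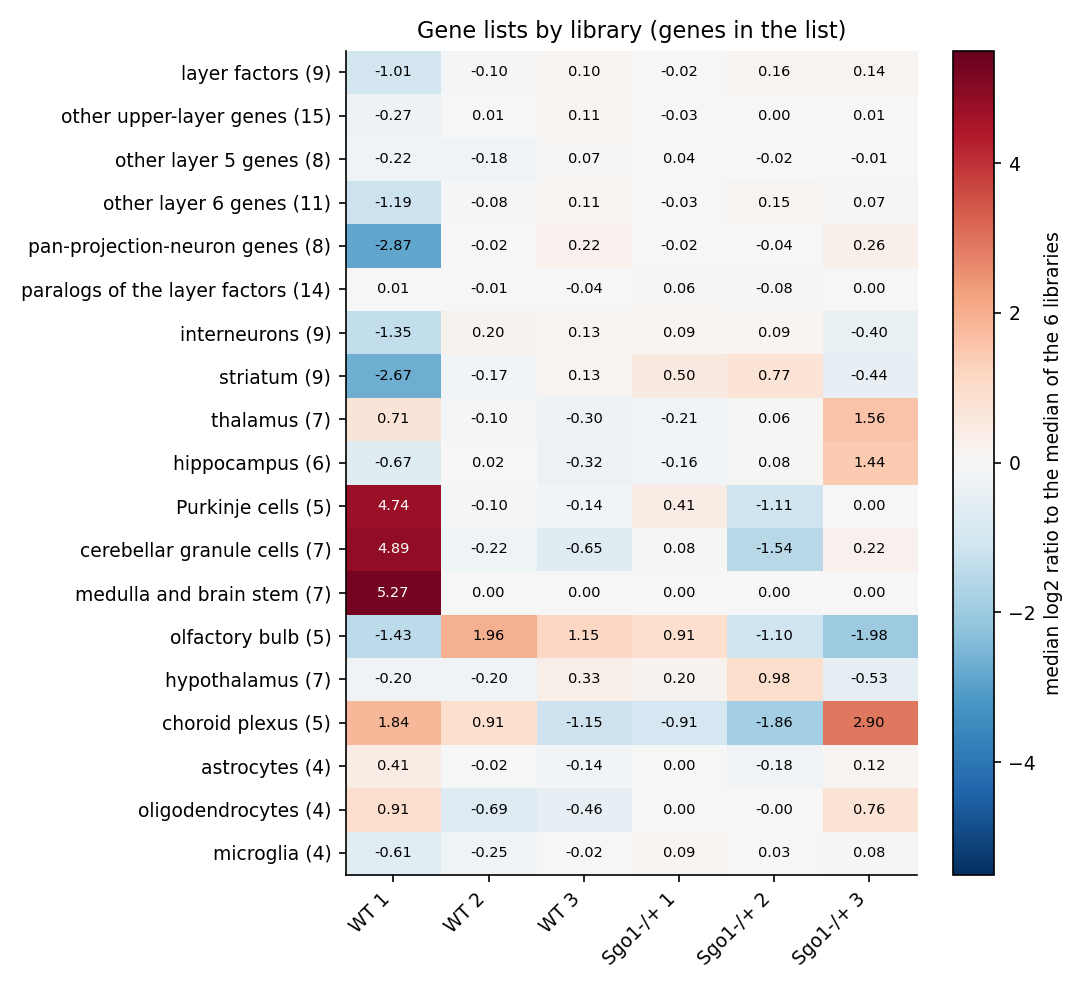
Median log2 ratio of each gene list to the median of the 6 libraries (color and printed value, lists in rows with their number of genes, libraries in columns). WT replicate 1 is low for the layer factors (-1.01), general projection neurons (-2.87) and striatum (-2.67) and high for Purkinje cells (4.74), granule cells (4.89) and medulla (5.27), and Sgo1-/+ replicate 3 is high for hippocampus (1.44), thalamus (1.56) and choroid plexus (2.90).

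The paralogs of the factors are the other members of their protein families, and 12 of 14 passed the filter on low counts. Their median log2 fold change was -0.15, and 0.12 without WT replicate 1. The groups did not overlap for 1 of the 12, where 6.81% of all genes did not. It was Tle1, a corepressor related to Tle4, with a log2 fold change of 0.28 (SE 0.124) and a Benjamini-Hochberg adjusted p above 0.05 in edgeR's test. Without WT replicate 1 the groups did not overlap for 4 of the 12 (17.9% of all genes), with Tle1 higher in Sgo1-/+ and Bcl11a, Eomes and Tbx21 lower. Eomes and Tbx21, T-box relatives of Tbr1 that mitral cells of the olfactory bulb make, then had log2 fold changes of -2.49 (SE 0.936) and -2.43 (SE 0.728), with an unadjusted p under 0.05 in edgeR's quasi-likelihood fit and an adjusted p above it.

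Eomes had 83.6, 238 and 150.1 normalized counts in WT and 90.4, 8.11 and 4.09 in Sgo1-/+. Tbx21 had 6.04, 51.4 and 43.6 in WT and 19.9, 2.03 and 4.09 in Sgo1-/+. Both were highest in WT replicates 2 and 3, the libraries with the most RNA of the olfactory bulb list, of which 4 of 5 genes were also lower in Sgo1-/+ at an unadjusted p under 0.05 without WT replicate 1. The part of olfactory bulb tissue in these differences was not tested. Tbr1 had 913 and 1359 in WT replicates 2 and 3, against 1046, 1078 and 1170.5 in the Sgo1-/+ replicates. It was highest in WT replicate 3, but without WT replicate 1 its groups overlapped. Any part of olfactory bulb tissue in the level of Tbr1 was not tested either.

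Other paralogs stood apart in WT replicate 1, and are given as examples chosen after their values were seen. Neurod1, the family member of cerebellar granule cells, had 1352 normalized counts in WT replicate 1 and 88.1 to 190.3 elsewhere. Bcl11a, the partner of Bcl11b, had 173 in WT replicate 1 and 829 to 1099 elsewhere, and Foxp1, a relative of Foxp2 in striatum and cortex, had 256 against 1254 to 1694.

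The genes most like the 3 factors of widest range were found among 12537 genes with a mean of at least 5 CPM, by the root mean square difference of their centred log2 CPM over the 6 libraries. For Tbr1 they were Dtl (0.19), Kcnh3 (0.20) and Gm11549 (0.20), of which Kcnh3, a potassium channel of the forebrain, had 78.5 normalized counts in WT replicate 1 and 1407 to 1913 elsewhere. For Fezf2 they were Sstr4 (0.20), a somatostatin receptor, Ddn (0.24), a postsynaptic protein of forebrain dendrites, and Chrm1 (0.26), a muscarinic receptor. For Bcl11b they were Ctxn1 (0.13), Chrm4 (0.14), a muscarinic receptor abundant in striatum, and Lmo7 (0.15). All 9 of these genes were at 3.5 to 11% of the median of the other libraries in WT replicate 1, so this library gives most of the range over which they are alike. Without that library their log2 fold changes lay between -0.24 for Kcnh3 and 0.23 for Sstr4.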

How the data were processed

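Total RNA of cerebrum (TruSeq V2, MiSeq, paired reads of 150 bases) was aligned by the authors to mouse mm10 with Strand NGS, and the submitters' processing notes also name BWA and edgeR. The authors deposited 1 table with an estimated count per Ensembl gene and library, which was used here. The authors also deposited DESeq-normalized log2 values centred per gene, and their own comparison as a log2 change, a signed score and an absolute fold ratio, from which no result was taken. The columns do not carry the sample titles. Their groups follow from the authors' contrast and their numbers from the run's sample index. The Ensembl release and the strand setting are not given in the sources used here.

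Depth was 11123917 to 12505561 estimated counts per library. In the median log2 ratios of the lists, normalized counts at or under 3 were treated as having no order, a limit of counting error only. Calls of overlap and of the lowest or highest library used the counts without this limit. Counts were rounded, scaled by TMM and tested with edgeR 4.0.16 (quasi-likelihood, default filter, 16337 genes, no covariates, adjusted p under 0.05 and 2-fold), with the standard error taken as the change over the square root of F. Normalized counts are counts over the TMM-scaled library size times its mean. For each factor an exact permutation test, two-sided and over 20 groupings, was run on the normalized counts. The 19 gene lists hold 144 entries. Some list genes enter the list values but are not reported here by themselves. Lengths and overlaps are from GENCODE M21, which holds 36308 of the table's identifiers. Of the layer factors, 8 had a RefSeq promoter window, Foxp2 having none.

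Named genes are the factors, genes of the layer and paralog lists with an unadjusted p under 0.05 or groups that do not overlap, Sgo1, region markers that moved with a factor, and for the 3 factors of widest range the 3 nearest profiles. The factors and lists were chosen with earlier results of these data known. Alternatives were DESeq2 1.42.0, the likelihood ratio test, limma 3.58.1 (log2 of 1 plus the DESeq-normalized count), DESeq2 size factors, scaling to the projection neuron genes, no filter, a minimum of 10 counts per library, a sex term, a block for replicate number, and leaving out each library. Females only, and scaling to the projection neuron genes without WT replicate 1, were added after seeing the data.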

Additional observations from a re-analysis of the deposited data

How the results depend on the processing

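Of 152 fold changes of the layer factors under the alternatives, 134 kept their direction, 18 reversed and 0 passed the threshold, with adjusted p between 0.391 and 1 over edgeR, DESeq2 and limma. The reversals include those of Cux1 and Cux2, which at 0.02 and -0.00 in the main fit had little direction to reverse. The size of some fold changes differed with the method. Fezf2, Bcl11b and Tbr1, at 0.68, 0.57 and 0.51 in the main fit, were at 1.49, 1.15 and 1.47 in limma. They were at 1.21, 1.02 and 1.18 with the replicate block, and at 0.68, 0.57 and 0.50 in DESeq2's Wald test. Against 0 genes past the adjusted and 2-fold threshold in all 16337, DESeq2 and the likelihood ratio test gave 2 each, limma 0, scaling to the projection neuron genes 36 (29 without WT replicate 1), females only 1, and leaving out 1 library 0 to 1 (the 1 without Sgo1-/+ replicate 2). At an unadjusted p under 0.05 there were 333 genes, 332 with the sex term, 280 with the replicate block and 917 with that scaling. With no filter there were 563, of the 26061 genes then tested. Females only gave 578, and leaving out 1 library 240 to 1040 (626 without WT replicate 1, 1040 without WT replicate 3). Layer factors at that level numbered 0, then 1 with the sex term (Neurod6, log2 fold change 1.18), 2 with the replicate block (Rorb 0.40, Neurod6 1.12), and 0 to 1 with 1 library left out (Rorb 0.78 without WT replicate 3). Same-numbered libraries did not deviate together (r of -0.15, 0.01 and -0.21), so the numbers were not taken as pairs.

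Scaling to the projection neuron genes moved the median of all genes to -1.13 and that of the 9 factors from 0.50 to -0.27, with Cux1, Cux2, Rorb, Foxp2 and Tle4 at -1.01, -0.96, -0.56, -0.27 and -0.55. With WT replicate 1 also left out, the median of all genes was -0.00, and Cux1 and Tbr1 were at -0.09 and -0.03. In females only Cux1 and Bcl11b were at -0.09 and Tbr1 at -0.03. Cux2, at -0.00 in the fit to 6 libraries, was 0.01 in limma and with the replicate block and 0.02 with the sex term. With 1 library left out, Cux1 ranged from -0.08 to 0.10, Cux2 from -0.17 to 0.11 and Tbr1 from -0.05 to 1.19. The causes were not tested. Fezf2 has no value under the minimum of 10 counts per library, which removed it. With 3 libraries a group and WT replicate 1 included, the standard errors of Fezf2, Bcl11b, Tbr1 and Neurod6 (0.590 to 0.882) leave 2-fold differences undetectable.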
